A study of Homo sapiens with 12 samples.

Results

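The genes that build the mitotic spindle, attach chromosomes to it and cut the cell apart were examined in HepG2, a human hepatoma cell line. The list held 52 genes in 10 subgroups, and a gene was measured by the brightest probe set annotated to its symbol alone, by mean over 12 arrays. Of the 52, 51 were measured among 18417 genes in all, and all 51 were bright enough to be tested. CENPA, the histone H3 variant of the centromere, was the exception, because its probe set is annotated to 2 genes. The 12 Affymetrix arrays formed 6 groups of 2: sh-p53 cells with Nutlin, AICAR or DMSO, and sh-con cells with Nutlin, AICAR or DMSO. The sh-p53 line carries a short hairpin RNA against p53 and the sh-con line a hairpin with no relevant target. Nutlin, which blocks the binding of MDM2 to p53 and so stabilises p53, was given at 10 uM, and AICAR, a precursor of an AMP mimic that activates the energy sensor AMPK, at 0.5 mM, each for 24 h. All groups share the hepatoma background, and each hairpin is represented by 1 line, so an effect of the hairpin and any other difference between the lines cannot be told apart. The arrays of a group are biological duplicates from cells plated at 700000 per well, and the p-values measure the spread between such duplicates. The series set out to compare these 2 stimulators of p53 and the dependence of their programs on p53.

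Before anaphase, the spindle checkpoint proteins sit on kinetochores that lack microtubules and hold back the anaphase-promoting complex. Once every chromosome is attached, that complex destroys securin and cyclin B, separase opens cohesin, and the central spindle and a contractile ring divide the cell. Most of these genes are transcribed mainly in G2 and M phase, under FOXM1 and the B-MYB and MuvB complex, and p53 is known to lower them through p21, which lets the DREAM repressor bind their promoters. Because whole cultures were lysed, fewer cells in G2 and M phase and less RNA per cell cannot be told apart in these values.

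Values are log2 signals, in which a difference of 1 is a doubling, and "fell by" and "rose by" give log2 differences throughout. Array medians lay between 5.64 and 5.84, and the duplicates of a group correlated over 18417 genes with r between 0.990 and 0.996. All 8 hepatocyte markers were bright on every array, between 10.55 and 13.06, and the leukocyte marker PTPRC lay between 3.11 and 3.38. Of the markers measured, none of 6 endothelial, 3 of 6 fibroblast and 2 of 5 leukocyte genes were bright enough to be tested. Both leukocyte genes, CD68 and CD14, rose with AICAR in each line, and the leukocyte list's summed linear signal was 577 to 602 with AICAR against 326 to 368 with DMSO in sh-p53, and 618 to 633 with AICAR against 413 to 425 with DMSO in sh-con. CD14 also rose with Nutlin in sh-con, by 0.92, where the leukocyte list's sum was 401 to 408 with Nutlin, against 413 to 425 with DMSO, and the fibroblast list's sum was 233 to 254 with Nutlin, against 189 to 211 with DMSO. With AICAR the fibroblast sum was 231 to 251, against 194 to 208 with DMSO, in sh-p53, and 201 to 278, against 189 to 211 with DMSO, in sh-con. The part of these markers in the results below was not tested. CDKN1A, the p21 gene and a p53 target, served as a check of the lines: it read 7.61 and 7.63 in sh-p53 with Nutlin, against 9.92 and 9.76 in sh-con with Nutlin, and 6.14 and 6.32 in sh-p53 with DMSO, against 7.06 and 6.93 in sh-con with DMSO. It was lower in sh-p53 under each treatment, as were the p53 targets MDM2 and TP53I3, and it still rose with Nutlin in sh-p53, by 1.39 (limma, adjusted p = 6.67e-05). The targeted transcript itself was not analysed here.

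The first question was how the mitosis genes respond when Nutlin stabilises p53 in sh-con cells. Of 51 genes, 50 fell and 0 rose, each of the 50 by at least 2-fold, at an adjusted p of 1.47e-05 or less in the limma fit. Of all 13813 genes tested, 18.9% were called lower and 11.3% higher, and 4.17% were called lower by at least 2-fold. In all 51 genes both Nutlin arrays lay below both DMSO arrays, as in 37.1% of all genes tested. The median log2 fold change was -3.07 over the mitosis genes and 0.01 over all genes tested. Averaged over the 51 genes, the 2 Nutlin arrays of sh-con read 5.84 and 5.60, against 8.65 and 8.54 for the 2 DMSO arrays. The heat map shows this drop in every subgroup, in both Nutlin arrays of sh-con alike.

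**Figure D1:**
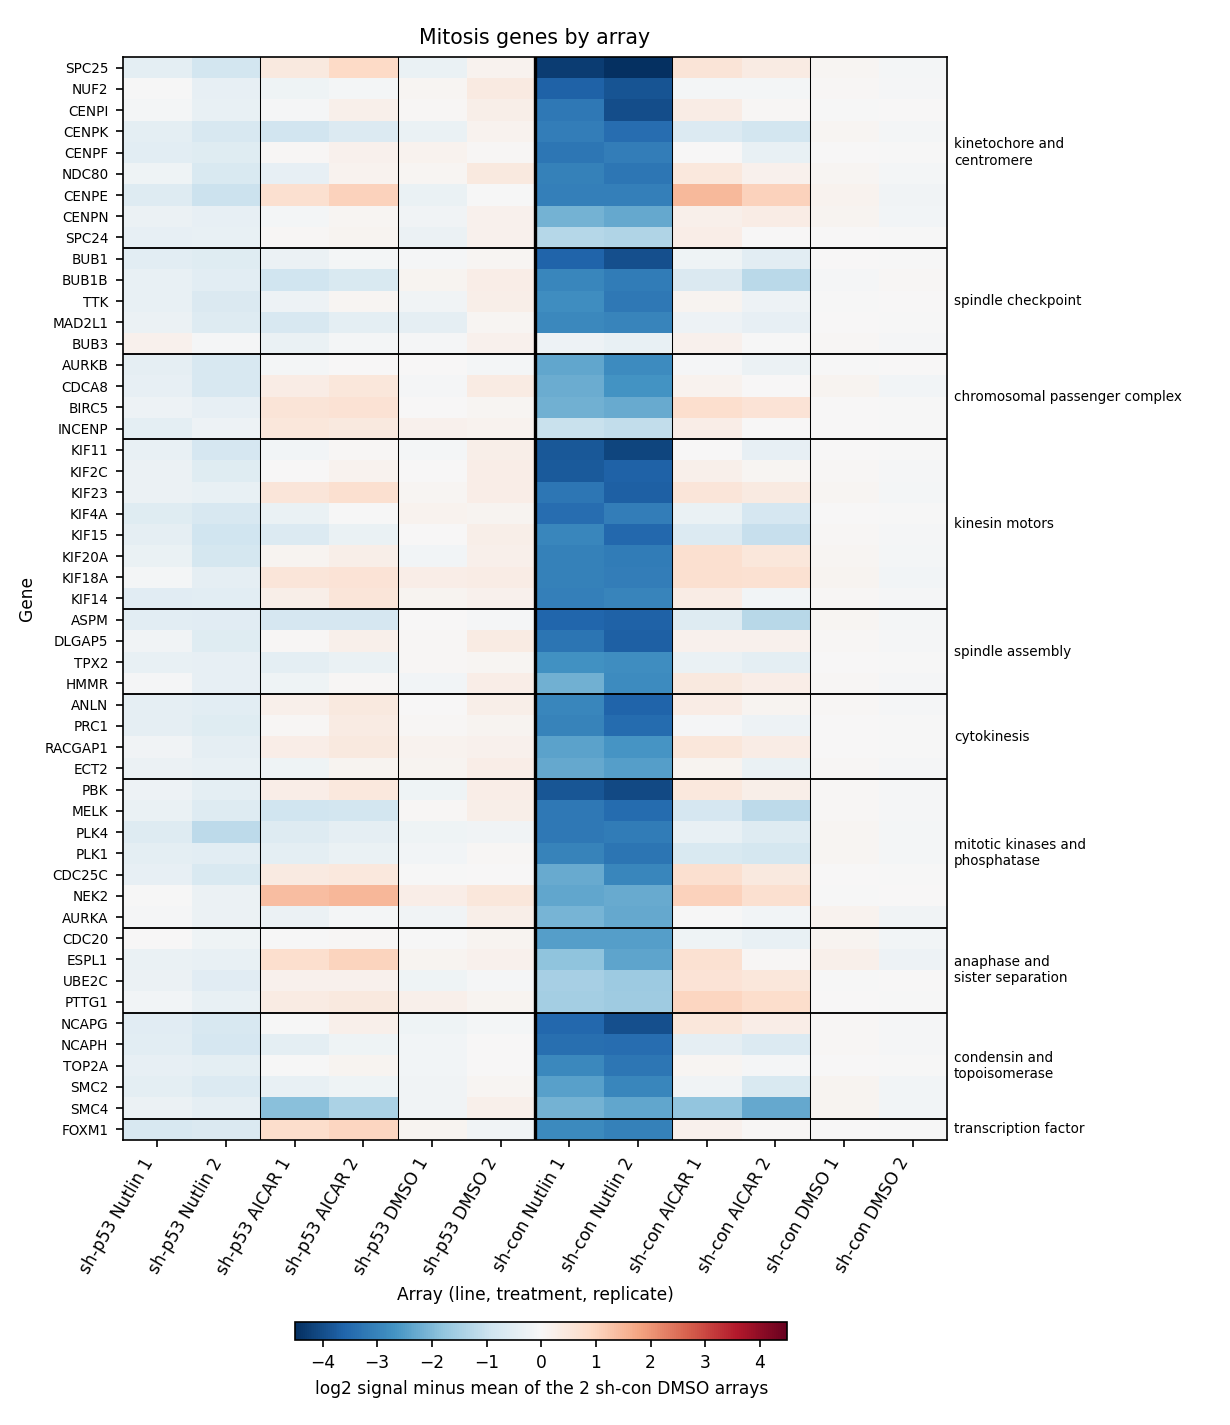
Heat map of 51 mitosis genes (rows, by subgroup) in 12 arrays (columns); colour is the log2 signal minus the mean of the 2 sh-con DMSO arrays, blue for lower and red for higher. The 2 sh-con Nutlin columns are blue for all genes but BUB3, which is pale, while the 2 sh-p53 Nutlin columns are pale blue for most genes.

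At the kinetochore, the protein plate that couples centromeric DNA to microtubules, 9 of 9 measured genes fell with Nutlin in sh-con, with a median of -3.17 and a range of -4.48 to -1.31. SPC25 and NUF2 encode subunits of the NDC80 complex, the main microtubule grip. SPC25 read 3.74 and 3.31 with Nutlin, against 8.10 and 7.90 with DMSO. NUF2 read 5.10 and 4.84 with Nutlin, against 8.80 and 8.68 with DMSO. In both, the Nutlin arrays lay far under the DMSO arrays with no overlap, a change of -4.48 ± 0.20 (SE) for SPC25 (22.2-fold, adjusted p = 1.59e-11) and -3.77 ± 0.16 for NUF2 (13.7-fold, adjusted p = 9.62e-12). The estimates for the 4 subunits of that complex differed: NDC80 itself fell by 3.15, and SPC24, the partner of SPC25, fell by 1.31. The Nutlin means of SPC25 (3.53) and NDC80 (4.52) lay under 4.58, the level below which a gene's mean counted as dim. The sizes of their falls are thus uncertain, and the differences between subunits were not tested. SPC24 read 5.66 and 5.58 with Nutlin, against 6.96 and 6.89 with DMSO, 2.48-fold lower and the smallest response of the kinetochore genes (adjusted p = 5.05e-06). Of the inner kinetochore, CENPI fell by 3.59, CENPK by 3.26 and CENPN by 2.21. CENPF, a large outer kinetochore protein, fell by 3.17, and CENPE, a kinesin-like motor that carries chromosomes to the metaphase plate, fell by 3.07.

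In the spindle checkpoint, 4 of 5 genes fell with Nutlin in sh-con, with a median of -3.01. BUB1, a kinase that docks other checkpoint proteins at the kinetochore, read 5.72 and 5.37 with Nutlin, against 9.34 and 9.28 with DMSO. Its 2 Nutlin arrays were well separated from the DMSO arrays, and it fell by 3.77 ± 0.15 (13.6-fold, adjusted p = 8.6e-12). BUB1B, part of the complex that inhibits CDC20, fell by 3.04, TTK, the kinase that starts checkpoint signalling, by 3.01, and MAD2L1, which binds CDC20 directly, by 2.94. BUB3, the adaptor that brings BUB1 and BUB1B to kinetochores, departed from the rest of the subgroup. It read 9.89 and 9.79 with Nutlin, against 10.18 and 10.05 with DMSO. Its groups did not overlap, but the difference of -0.27 (95% interval -0.59 to 0.04) did not pass the test (adjusted p = 0.171), and it was the sole mitosis gene of the 51 not called.

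All 8 kinesin motor genes fell with Nutlin in sh-con, within a narrow range of -3.97 to -3.02 and with a median of -3.26. KIF11, which slides antiparallel microtubules apart to form a bipolar spindle, read 4.59 and 4.29 with Nutlin, against 8.44 and 8.39 with DMSO. The Nutlin arrays lay near the level below which genes were left out as dim, and KIF11 fell by 3.97 ± 0.18 (15.7-fold, adjusted p = 1.6e-11). KIF2C, which depolymerises microtubules at centromeres, fell by 3.72, KIF23, the motor of centralspindlin, fell by 3.46, and KIF4A, a chromosome-bound kinesin that also shapes the central spindle, fell by 3.28. KIF15, which can share the work of KIF11, fell by 3.25, KIF20A, a cytokinesis motor, by 3.11, KIF18A, which damps chromosome oscillations, by 3.08, and KIF14, which acts in late cytokinesis, by 3.02.

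The 4 cytokinesis genes fell with a median of -2.87 and a range of -3.28 to -2.39. ANLN, the ring scaffold anillin, read 6.21 and 5.53 with Nutlin, against 9.21 and 9.11 with DMSO. Its Nutlin duplicates differed from each other by more than those of SPC25, BUB1 or KIF11, but both lay far below DMSO, and it fell by 3.28 ± 0.18 (9.73-fold, adjusted p = 2.18e-10). PRC1, which bundles microtubules in the spindle midzone, fell by 3.22, RACGAP1, the partner of KIF23 in centralspindlin, by 2.52, and ECT2, the exchange factor that activates RhoA for the ring, by 2.39. By subgroup medians the kinesin motors (-3.26) and the kinetochore genes (-3.17) stood lowest of these 4 subgroups, followed by the checkpoint (-3.01) and cytokinesis (-2.87). However, the ranges overlap, and some kinesin, kinetochore and checkpoint genes lay under the dim level with Nutlin. The order was not tested.

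The remaining subgroups followed the same direction with Nutlin in sh-con. FOXM1, the transcription factor of G2 and M genes, read 5.76 and 5.61 with Nutlin, against 8.64 and 8.63 with DMSO, with the DMSO duplicates nearly equal and the Nutlin duplicates close. It fell by 2.95 ± 0.14 (7.74-fold, adjusted p = 3.49e-11). Of the 7 mitotic kinase and phosphatase genes all fell (median -3.15). PBK, a mitotic kinase, read 5.13 and 4.92 with Nutlin, against 9.04 and 8.93 with DMSO, and fell by 3.97 ± 0.17 (15.6-fold, adjusted p = 9.62e-12). Among the other kinase genes, MELK fell by 3.33, PLK4, which starts centriole duplication, by 3.19, and PLK1, which acts at many steps of mitosis, by 3.15. NEK2, which separates centrosomes, fell by 2.30, AURKA, which matures them, by 2.21, and CDC25C, a phosphatase that activates CDK1, by 2.60.

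Spindle assembly genes fell 4 of 4 (median -3.12). ASPM, which focuses spindle poles, read 4.89 and 4.83 with Nutlin, against 8.58 and 8.37 with DMSO, with both Nutlin arrays set apart, and fell by 3.61 (12.2-fold, adjusted p = 2.54e-11). DLGAP5, which stabilises spindle fibres, fell by 3.48, TPX2, an activator of AURKA, by 2.76, and HMMR, a spindle pole protein, by 2.49. Of the condensin and topoisomerase genes 5 of 5 fell (median -3.08), among them NCAPG, a condensin subunit, which read 6.36 and 5.93 with Nutlin, against 9.94 and 9.82 with DMSO. NCAPG thus fell by 3.74 ± 0.16 with no overlap of the groups (13.3-fold, adjusted p = 1.35e-11). The condensin subunit NCAPH fell by 3.40, TOP2A, which untangles sister DNA, by 3.08, and the condensin ATPases SMC2 by 2.68 and SMC4 by 2.25.

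The smaller responses lay in the chromosomal passenger complex, which corrects wrong attachments (4 of 4 fell, median -2.33), and among the genes of anaphase (4 of 4 fell, median -1.84). AURKB, the kinase of the passenger complex, read 6.75 and 6.24 with Nutlin, against 9.06 and 9.10 with DMSO, 5.99-fold lower (adjusted p = 1.34e-09). INCENP, the scaffold that binds AURKB, read 6.62 and 6.53 with Nutlin, against 7.66 and 7.59 with DMSO, and fell by 1.05 ± 0.14 (2.07-fold, adjusted p = 1.47e-05), the smallest change among the 50 called. Of the other passenger subunits, CDCA8 (borealin) fell by 2.46 and BIRC5 (survivin) by 2.20. BIRC5 has a second single-gene probe set, which fell by 0.60, so its size depends on the probe set. CDC20, the activator of the anaphase-promoting complex, read 6.71 in each Nutlin array, against 9.31 and 9.08 with DMSO, 5.6-fold lower (adjusted p = 2.18e-10). ESPL1 (separase) fell by 2.10, UBE2C, the ubiquitin-conjugating enzyme of the complex, by 1.57, and PTTG1 (securin) by 1.56. For 7 genes (CENPE, KIF11, KIF15, KIF18A, NDC80, SPC25 and TTK) the Nutlin mean in sh-con lay under 4.58, the level below which a gene's mean counted as dim, so that the size of their fall is uncertain.

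**Figure D2:**
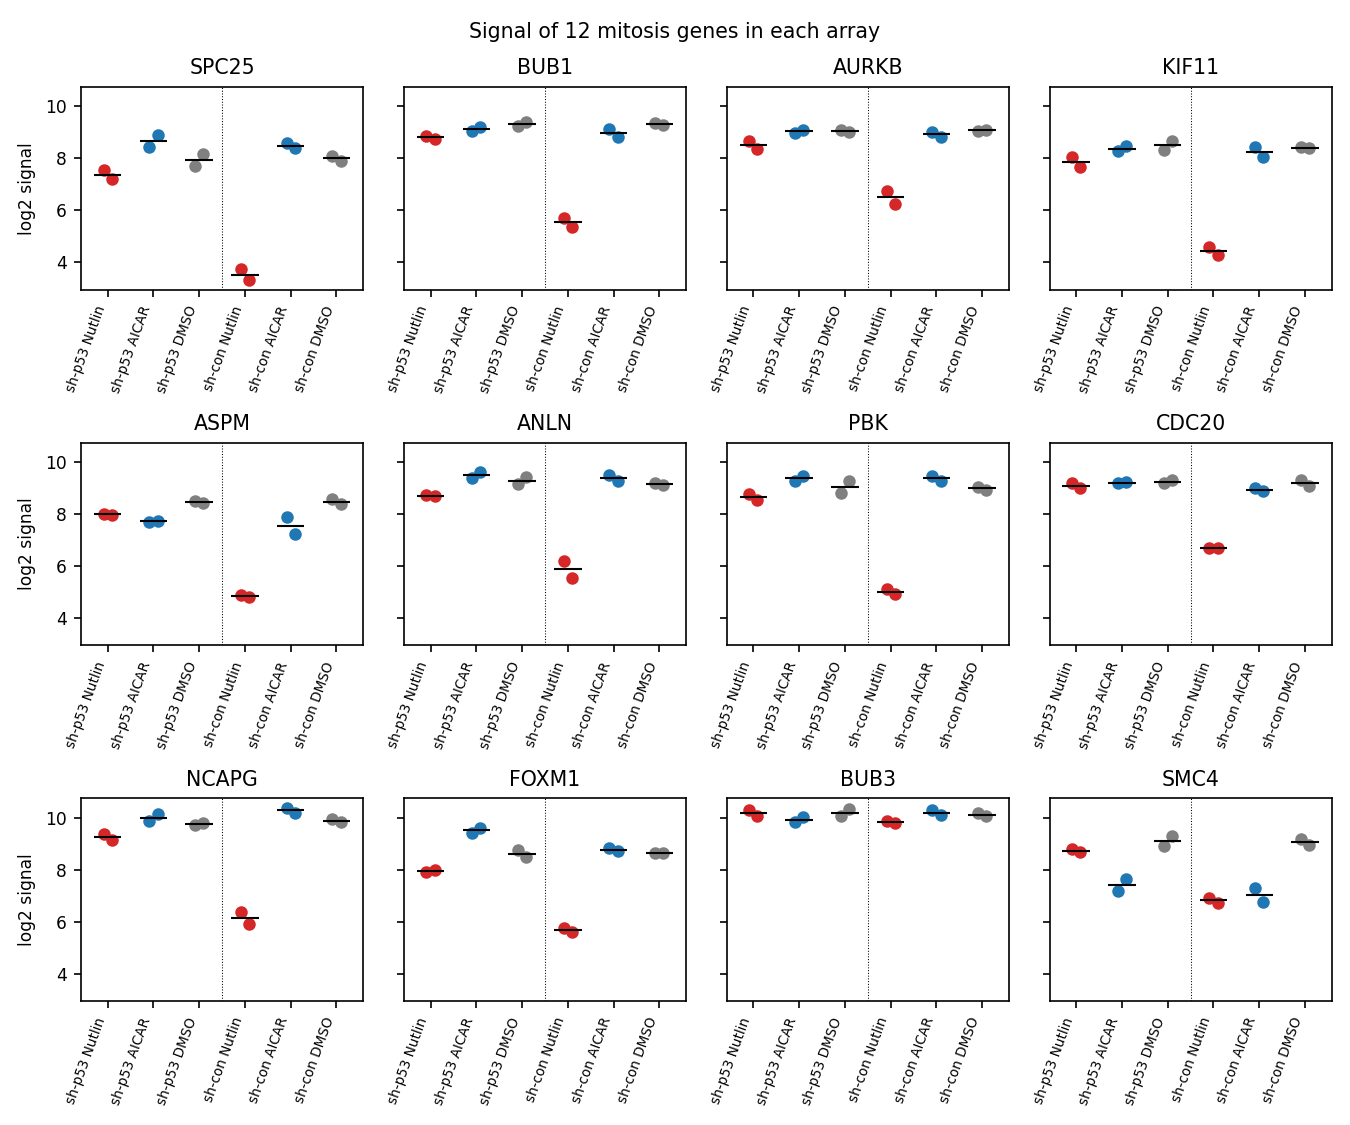
Log2 signal (y axis) of 12 mitosis genes in each of 6 groups (x axis), 1 point per array and a bar at the mean of 2; red is Nutlin, blue AICAR and grey DMSO, with sh-p53 left of the dotted line and sh-con right of it. In sh-con the Nutlin points of 11 genes lie far below DMSO, whereas BUB3 lies between 9.79 and 10.31 throughout that line, and SMC4 with AICAR lies far below DMSO in each line.

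Promoter sequence is shown for genes of the 4 subgroups compared, because the sites through which the DREAM and B-MYB complexes reach such genes, the cell cycle genes homology region (CHR) and the CCAAT box of NF-Y, lie close to the transcription start. RefSeq promoter sequences of GRCh38.p14 matched 43 of the 52 genes by symbol, with 53 starts, and ran from 250 bases before to 50 bases after each start. FOXM1, PBK, BUB3, AURKA, TPX2, BIRC5, UBE2C, RACGAP1 and TTK were not matched. The stretches below run from 150 bases before to 30 bases after the start, 5′ to 3′ on the gene's strand, and capitals mark, on either strand, the CHR word TTTGAA and its variant form TTCGAA, the box CCAAT, and any of 4 E2F words. The E2F words searched were TTCCCGC and also TTCGCGC, with the further forms TTGCCGC and lastly TTGGCGC. The first 4 are the genes with the largest Nutlin response of the checkpoint, kinetochore, kinesin and cytokinesis subgroups, and CENPE and the first listed start of SMC4 were added after their AICAR values were seen. Their positions are chr2:110678034-110678213, minus strand, for BUB1; chr2:168890401-168890580, minus strand, for SPC25; chr10:92592980-92593159, plus strand, for KIF11; chr7:36389712-36389891, plus strand, for ANLN; chr4:103198314-103198493, minus strand, for CENPE; and chr3:160399500-160399679, plus strand, for SMC4.
BUB1: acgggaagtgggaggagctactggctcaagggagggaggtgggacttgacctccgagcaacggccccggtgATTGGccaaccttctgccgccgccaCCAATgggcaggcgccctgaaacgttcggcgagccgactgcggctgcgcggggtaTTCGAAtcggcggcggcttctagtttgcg
SPC25: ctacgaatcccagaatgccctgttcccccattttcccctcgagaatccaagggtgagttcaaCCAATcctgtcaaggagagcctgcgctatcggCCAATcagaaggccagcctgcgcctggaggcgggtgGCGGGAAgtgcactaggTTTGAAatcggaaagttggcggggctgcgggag
KIF11: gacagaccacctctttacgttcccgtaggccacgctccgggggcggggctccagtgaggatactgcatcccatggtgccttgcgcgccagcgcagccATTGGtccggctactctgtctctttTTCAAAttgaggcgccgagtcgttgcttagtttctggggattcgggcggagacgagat
ANLN: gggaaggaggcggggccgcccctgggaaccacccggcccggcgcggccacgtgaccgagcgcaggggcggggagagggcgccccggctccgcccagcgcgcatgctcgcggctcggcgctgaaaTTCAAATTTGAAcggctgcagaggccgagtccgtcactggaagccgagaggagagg
CENPE: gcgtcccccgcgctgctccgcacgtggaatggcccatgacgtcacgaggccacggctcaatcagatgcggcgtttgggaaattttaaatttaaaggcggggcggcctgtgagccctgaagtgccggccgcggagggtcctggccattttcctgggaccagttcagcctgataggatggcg
SMC4: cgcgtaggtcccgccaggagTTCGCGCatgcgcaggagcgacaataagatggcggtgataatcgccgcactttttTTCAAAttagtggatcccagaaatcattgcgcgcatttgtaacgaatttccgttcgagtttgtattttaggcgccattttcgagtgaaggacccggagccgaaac

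In SPC25 a CHR word lies 3 bases before the start and CCAAT words begin 88 and 56 bases before it, with an E2F word between them and the CHR word. BUB1 has the TTCGAA form just after the start and a pair of CCAAT words upstream, one on each strand. KIF11 has 1 CHR and 1 CCAAT word, both on the opposite strand, and ANLN has 2 CHR words back to back and no CCAAT in this window. The CENPE stretch holds none of these words, and that of SMC4 holds a CHR word farther upstream, 75 bases before the start, and an E2F word, while the same stretch at its second listed start holds none. Over all 53 starts, 64.2% held a CHR word in the 300 bases, against 13.7% of 22199 starts of protein-coding genes and 11.7% of 15420 starts of genes tested here. From 60 bases before to 30 after the start, a CHR word was present at 47.2% of the starts of mitosis genes and 3.72% of those of protein-coding genes. CCAAT was present at 64.2% against 34.7%, an E2F word at 28.3% against 16.1%, and both a CHR and a CCAAT word at 45.3% against 5.48%. The plot of words by distance shows the CHR words peaking just before the start and CCAAT words farther upstream. Within the list, the median Nutlin response in sh-con was -3.15 over 31 genes with a CHR word and -3.11 over 11 without, a difference that was not tested. These matches describe letters in a window, and no binding was measured.

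**Figure D3:**
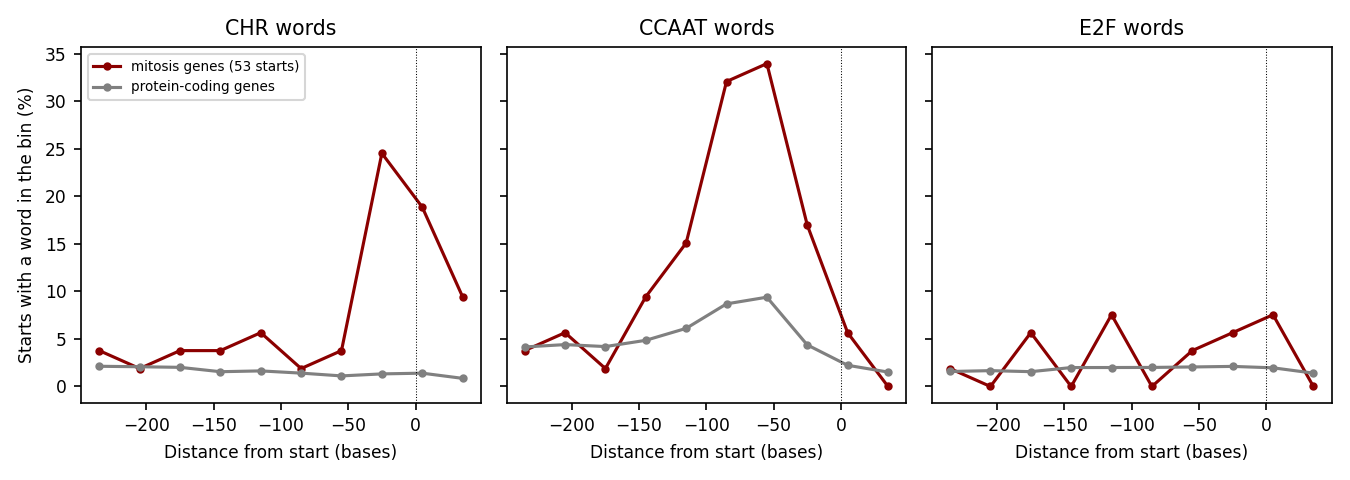
Share of starts (y axis, percent) with a CHR, CCAAT or E2F word beginning in each bin of 30 bases, by distance from the transcription start (x axis, bases); dark red is the 53 starts of mitosis genes and grey the 22199 starts of protein-coding genes. CHR words peak from 40 to 10 bases before the start, at 24.5% of starts, and CCAAT from 70 to 40 bases before it, at 34.0%.

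The next question was whether the drop depends on the line. With Nutlin in sh-p53, 0 of 51 genes were called by limma, where 0.0796% of all genes tested were called higher and 0% lower. Every one of the 51 estimates was negative, however, with a median of -0.52 against -0.02 over all genes tested, and 42 had an unadjusted p under 0.05, all of them lower, where 4.08% of all genes tested were lower at that threshold. In 46 genes both Nutlin arrays lay below both DMSO arrays, a pattern shown by 20.7% of all genes tested; groups overlapped for CDC20, AURKA, HMMR, BUB3 and MAD2L1. Averaged over the 51 genes, the arrays read 8.28 and 8.07 with Nutlin, against 8.57 and 8.76 with DMSO. The pooled SD of this average between the arrays of a group, over the 12 arrays, was 0.144. The 51 genes were read on the same arrays and are not independent replicates. The counts above are therefore no separate support for one another. FOXM1 had the lowest adjusted p: it read 7.92 and 8.00 with Nutlin, against 8.76 and 8.48 with DMSO. That is a difference of -0.66 (95% interval -0.96 to -0.36, adjusted p = 0.117), with both Nutlin arrays below both DMSO arrays. The count of called genes depended on the fit: it was 9 when only the groups compared entered the fit and 2 with a stricter filter on dim genes, FOXM1 and KIF4A.

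By subgroup the sh-p53 medians were -0.62 for kinesin motors, -0.53 for cytokinesis, -0.52 for the checkpoint, -0.50 for the kinetochore and -0.33 for anaphase genes. SPC25 read 7.56 and 7.19 with Nutlin, against 7.71 and 8.17 with DMSO, a difference of -0.56 (adjusted p = 0.519). BUB1 read 8.85 and 8.75 with Nutlin, against 9.25 and 9.39 with DMSO (-0.52, adjusted p = 0.334). KIF11 read 8.06 and 7.67 with Nutlin, against 8.32 and 8.68 with DMSO (-0.64, adjusted p = 0.292). In these 3 genes both Nutlin arrays lay under both DMSO arrays, by a small part of the gap seen in sh-con. ANLN read 8.74 and 8.68 with Nutlin, against 9.16 and 9.41 with DMSO (-0.58, adjusted p = 0.446). NCAPG read 9.39 and 9.15 with Nutlin, against 9.70 and 9.80 with DMSO (-0.48, adjusted p = 0.496). ASPM read 8.00 and 7.97 with Nutlin, against 8.50 and 8.41 with DMSO (-0.47, adjusted p = 0.545). ANLN, NCAPG and ASPM showed the same order of arrays, with none of the Nutlin values reaching DMSO. AURKB read 8.67 and 8.38 with Nutlin, against 9.10 and 8.99 with DMSO (-0.52, adjusted p = 0.45). CDC20 read 9.19 and 8.99 with Nutlin, against 9.18 and 9.31 with DMSO (-0.16, adjusted p = 0.948). The AURKB groups were separate, but those of CDC20 overlapped. Over the 50 genes called in sh-con, the log2 change in sh-p53 was a median 17.3% of that in sh-con, from 6.28% to 50.1%. INCENP was the highest at 50.1%, and the next gene was at 28.1%.

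**Figure D4:**
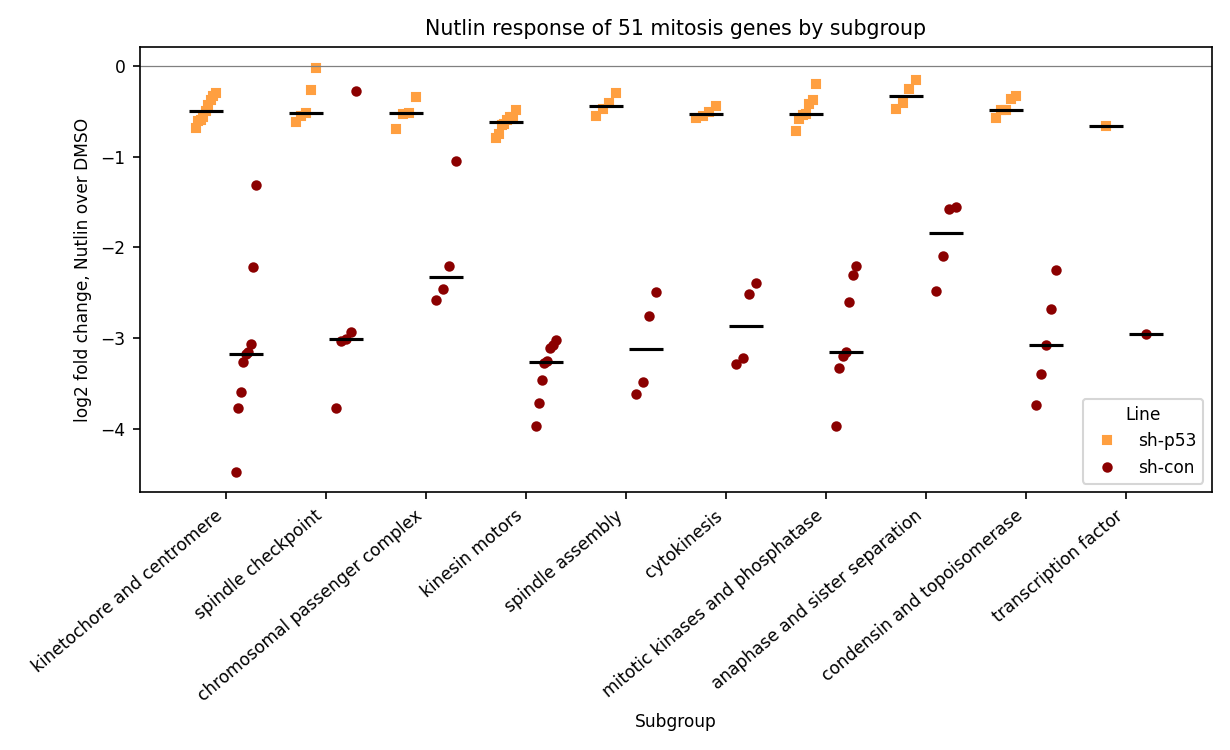
Log2 fold change of Nutlin over DMSO (y axis) for each of 51 mitosis genes by subgroup (x axis); orange squares are sh-p53, dark red circles sh-con, and black bars subgroup medians. The sh-p53 values lie between -0.80 and -0.02 in every subgroup, and 50 of the sh-con values lie between -4.48 and -1.05.

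The difference itself was tested as an interaction, the Nutlin response in sh-p53 minus that in sh-con. It was positive and called for 49 of 51 genes, where 4.67% of all genes tested were called in that direction and 2.73% in the other, with a median of 2.46. All 9 kinetochore genes (median 2.58), all 8 kinesin motors (2.52), 4 of 5 checkpoint genes (2.46) and all 4 cytokinesis genes (2.37) were among them. The largest were SPC25 at 3.91 ± 0.28 (adjusted p = 4.76e-08), PBK at 3.59 ± 0.24 (adjusted p = 2.2e-08) and NUF2 at 3.34 ± 0.22 (adjusted p = 2.47e-08). PBK read 8.77 and 8.53 with Nutlin, against 8.79 and 9.27 with DMSO, in sh-p53, and NUF2 read 8.74 and 8.36 with Nutlin, against 8.82 and 9.14 with DMSO. In both the lower of the Nutlin arrays of sh-p53 lay more than 3 log2 units above the higher Nutlin array of sh-con. The interaction was 3.34 for KIF11, 3.25 for BUB1, 2.71 for ANLN and 2.29 for FOXM1. SPC24 was called at 1.01 ± 0.22 (adjusted p = 0.00681), but not without the first sh-p53 DMSO array (0.77, adjusted p = 0.0654). BUB3 and INCENP were not called. BUB3 read 10.29 and 10.05 with Nutlin, against 10.06 and 10.32 with DMSO, in sh-p53, with overlapping arrays and an interaction of 0.26 (95% interval -0.19 to 0.70, adjusted p = 0.563). INCENP read 7.20 and 7.38 with Nutlin, against 7.83 and 7.80 with DMSO, in sh-p53, so that its arrays were separate there too, and its interaction was 0.52 (95% interval 0.11 to 0.93, adjusted p = 0.127). The second probe set of BIRC5 gave an interaction of -0.04, against 1.86 for the brighter one. Across the 51 genes the responses in sh-p53 and sh-con, which share no arrays, had a Pearson r of 0.511 and a Spearman rho of 0.419. The points share probe sets and a joint normalisation, and genes are not independent replicates. The correlation over all genes tested is not given here.

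AICAR moved some of these genes up and others down, with changes of 4.11-fold or less among those called. In sh-p53, 7 of 51 rose and 7 fell, where 16.2% of all genes tested were called higher and 21.6% lower. In sh-con, 10 rose and 11 fell, where 14.6% of all genes tested were called higher and 23.2% lower. The shares of the list called were thus near those of all genes tested or below them, except for the higher calls in sh-con. The share of those was above 14.6%. The median log2 fold change was -0.04 in sh-p53, against 0.07 over all genes tested, and 0.08 in sh-con, against 0.04 over all genes tested. Both directions depend on scaling: with each array centred on its median, 6 rose and 10 fell in sh-p53 and 6 rose and 13 fell in sh-con, and after quantile normalisation 14 rose and 7 fell in sh-p53 and 14 rose and 10 fell in sh-con. Centring moves the median of all genes by -0.15 in sh-p53 and -0.14 in sh-con. The counts also moved with single arrays. In sh-p53 4 fell without the first AICAR or the second DMSO array, and 4 rose without the second AICAR or the first DMSO array. In sh-con 6 fell without the second AICAR array, 7 without the first DMSO array, and 6 rose without the second DMSO array.

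The genes that rose in both lines were BIRC5, CENPE, KIF23 and NEK2. They are 57.1% of the 7 that rose in sh-p53 and 40% of the 10 that rose in sh-con. The overlap of calls over all genes tested is not given here, so these shares cannot be read as particular to the mitosis genes. CENPE read 7.71 and 8.04 with AICAR, against 6.69 and 7.00 with DMSO, in sh-p53. In sh-con it read 8.47 and 8.02 with AICAR, against 7.17 and 6.82 with DMSO. Its groups were separate in each line, and it rose by 1.03 ± 0.19 in sh-p53 (2.05-fold, adjusted p = 0.000313) and 1.25 ± 0.19 in sh-con (2.38-fold, adjusted p = 4.82e-05). NEK2 read 8.67 and 8.79 with AICAR, against 7.59 and 7.81 with DMSO, in sh-p53. In sh-con it read 8.33 and 8.02 with AICAR, against 7.29 and 7.31 with DMSO. NEK2 thus rose by 1.03 ± 0.15 in sh-p53 (2.04-fold, adjusted p = 3.52e-05) and 0.87 ± 0.15 in sh-con (1.83-fold, adjusted p = 0.00017), with no overlap in either. BIRC5 rose by 0.57 in sh-p53 and 0.68 in sh-con, but its second probe set was at -0.35 in sh-p53, and with the mean of both probe sets the call in sh-p53 was lost (0.11, adjusted p = 0.531). KIF23 rose by 0.44 in sh-p53 and 0.47 in sh-con, and its call was lost in sh-p53 without any 1 of the 4 arrays and in sh-con without the first AICAR or the second DMSO array.

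The genes that fell in both lines were ASPM, BUB1B, CENPK, KIF15, MELK, SMC4 and TPX2. They are 100% of those called lower in sh-p53 and 63.6% of those in sh-con. For these shares too, the overlap over all genes tested is not given, so they cannot be read as particular to the list. SMC4 stood lowest in each line. It read 7.19 and 7.65 with AICAR, against 8.91 and 9.28 with DMSO, in sh-p53, and 7.29 and 6.76 with AICAR, against 9.20 and 8.93 with DMSO, in sh-con. Both AICAR arrays lay more than 1 log2 unit below DMSO in each line, and SMC4 fell by 1.68 ± 0.19 in sh-p53 (3.2-fold, adjusted p = 3.45e-06) and fell by 2.04 ± 0.19 in sh-con (4.11-fold, adjusted p = 3.42e-07). SMC2, its partner ATPase in condensin, was at -0.22 in sh-p53 (adjusted p = 0.354) and -0.42 in sh-con (adjusted p = 0.0836), and was called in neither.

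MELK read 7.97 and 8.04 with AICAR, against 8.91 and 9.13 with DMSO, in sh-p53, and 8.11 and 7.68 with AICAR, against 8.94 and 8.80 with DMSO, in sh-con. BUB1B read 7.67 and 7.92 with AICAR, against 8.70 and 8.88 with DMSO, in sh-p53, and 7.93 and 7.38 with AICAR, against 8.54 and 8.63 with DMSO, in sh-con. ASPM read 7.70 and 7.73 with AICAR, against 8.50 and 8.41 with DMSO, in sh-p53, and 7.88 and 7.24 with AICAR, against 8.58 and 8.37 with DMSO, in sh-con. In all 3 genes the AICAR arrays lay under the DMSO arrays in both lines: MELK fell by 1.01 in sh-p53 and by 0.97 in sh-con, BUB1B fell by 1.00 in sh-p53 and by 0.93 in sh-con, and ASPM fell by 0.74 in sh-p53 and by 0.92 in sh-con, with adjusted p-values of 0.00239 or less. These calls, and those of SMC4, CENPE and NEK2, held when any 1 of the arrays compared was left out. In sh-p53 the call of CENPK and of KIF15 was lost without the first AICAR or the second DMSO array, and that of TPX2 without 3 of the 4 arrays in turn. In sh-con that of KIF15 was lost without the second AICAR array and that of TPX2 again without 3 of the 4.

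Some genes passed the test in 1 line only. FOXM1 read 9.41 and 9.61 with AICAR, against 8.76 and 8.48 with DMSO, in sh-p53, and 8.82 and 8.70 with AICAR, against 8.64 and 8.63 with DMSO, in sh-con. The AICAR arrays were higher in both lines without overlap, by 0.89 ± 0.14 in sh-p53 (1.85-fold, adjusted p = 9.59e-05) and by 0.13 in sh-con (adjusted p = 0.49). PTTG1 read 9.63 and 9.70 with AICAR, against 9.49 and 9.37 with DMSO, in sh-p53, and 10.20 and 10.06 with AICAR, against 9.28 and 9.22 with DMSO, in sh-con. It rose by 0.88 ± 0.13 in sh-con (1.84-fold, adjusted p = 6.08e-05), and the change in sh-p53 was 0.23 (adjusted p = 0.188), again with no overlap of the arrays in either line. KIF18A read 7.88 and 7.97 with AICAR, against 7.63 and 7.69 with DMSO, in sh-p53, and 8.07 and 8.02 with AICAR, against 7.45 and 7.24 with DMSO, in sh-con. It was called in sh-con (0.70 ± 0.14, 1.63-fold, adjusted p = 0.000949) and not in sh-p53 (0.27, adjusted p = 0.154). SPC25 read 8.45 and 8.90 with AICAR, against 7.71 and 8.17 with DMSO, in sh-p53, where it was called at 0.73 (1.66-fold, adjusted p = 0.00753). In sh-con it read 8.60 and 8.38 with AICAR, against 8.10 and 7.90 with DMSO (0.49, adjusted p = 0.061). There limma called it higher with a filter at the 50th percentile (adjusted p = 0.0398) and when only the groups compared were fitted (adjusted p = 0.031). Its call in sh-p53 was lost without the second AICAR array or the first DMSO array (adjusted p up to 0.116), and that of ESPL1, which rose by 0.71 in sh-p53, was lost without the same arrays. In sh-con, PLK1 fell by 0.74 (adjusted p = 0.000483), and UBE2C rose by 0.57 (adjusted p = 0.00307).

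None of these differences between the lines passed its own test. With AICAR the interaction was called by limma for 0 of 51 genes, where 0.304% of all genes tested were called higher in sh-p53 and 0.709% lower, and at an unadjusted p under 0.05 for 1 higher and 3 lower, where 6.82% and 5.67% of all genes tested were. FOXM1 was the highest at 0.76 (95% interval 0.34 to 1.18, adjusted p = 0.0793), and PTTG1 was at -0.65 (95% interval -1.05 to -0.25, adjusted p = 0.121). With a trended and robust prior variance each was called, FOXM1 higher and PTTG1 lower. The responses of the 51 genes in the 2 lines, which share no arrays, had a Pearson r of 0.873 and a Spearman rho of 0.822. Of the 51 genes, 42 had the same sign, with the same limits on such a comparison as above. The values over all genes tested are not given here, so this agreement cannot be read as particular to the mitosis genes.

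**Figure D5:**
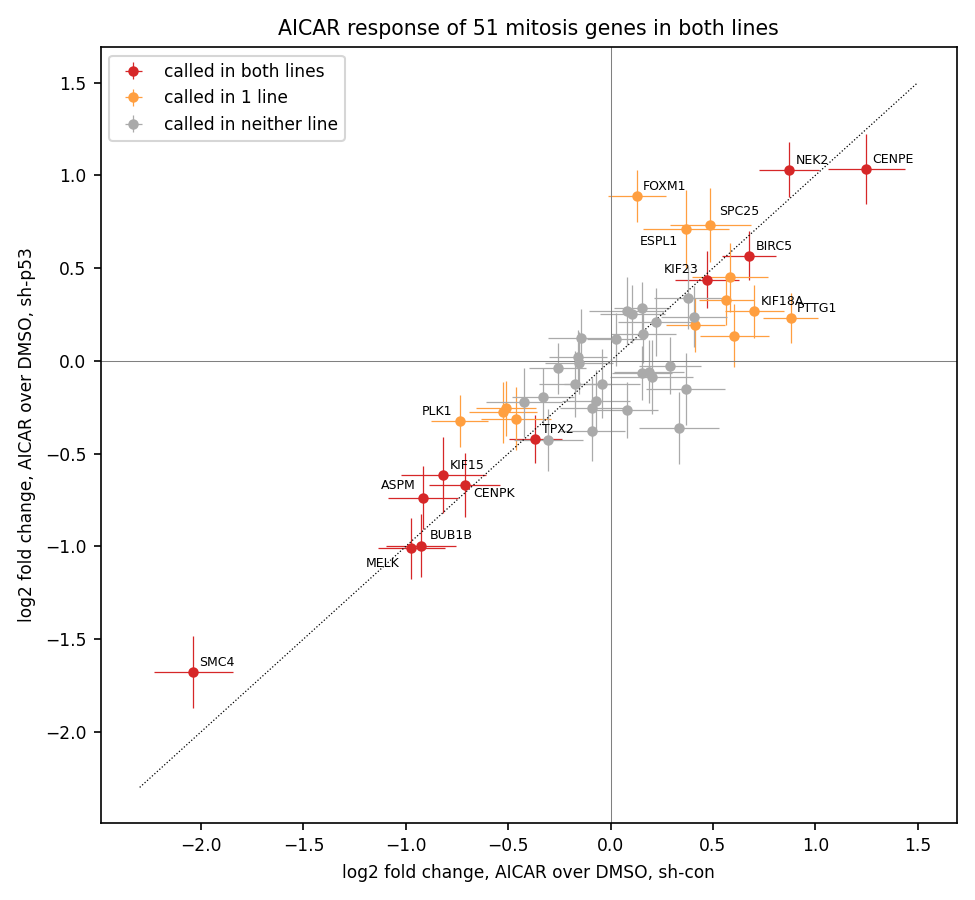
Log2 fold change of AICAR over DMSO for 51 mitosis genes in sh-p53 (y axis) against sh-con (x axis), with bars of 1 SE and a dotted line of equal response; red genes were called in both lines, orange in 1 and grey in neither. SMC4 is lowest in each line, CENPE and NEK2 are at the top right, and FOXM1 lies above the dotted line (0.89 in sh-p53, 0.13 in sh-con).

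By subgroup, the AICAR calls stand beside 16.2% of all genes tested called higher and 21.6% lower in sh-p53, and 14.6% higher and 23.2% lower in sh-con. Among kinetochore genes 2 were called higher and 1 lower in sh-p53, and 1 higher and 1 lower in sh-con. Of the kinesin motors 1 rose and 1 fell in sh-p53, and 3 rose and 2 fell in sh-con. The checkpoint had 1 lower call in each line, BUB1B, and cytokinesis had 0 calls by limma in sh-p53 and 1 higher call in sh-con, RACGAP1, which was lost without 3 of the 4 arrays in turn. In sh-p53 none of the 4 cytokinesis genes had an unadjusted p under 0.05 either (0 of 4), where 22.4% of all genes tested were higher and 25% lower at that threshold. Locus length ran against the change of a gene with both compounds. With Nutlin in sh-con the Spearman rho was -0.452 over the 51 genes and -0.181 over 13802 genes. It was weaker over the 51 genes for the AICAR change, with a Spearman rho in sh-p53 of -0.298 over the 51 genes and -0.381 over 13802 genes, and in sh-con of -0.262 over the 51 genes and -0.373 over 13802. The 11 genes that fell in sh-con had a median locus length of 62511 bases, against 29265.5 for 30 genes not called and 25722.5 for the 10 that rose. The part of locus length in the Nutlin and AICAR results was not tested.

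With DMSO alone, no mitosis gene passed the test between sh-p53 and sh-con cells: 0 of 51 were called by limma, where 0.261% of all genes tested were called higher in sh-p53 and 0.384% lower. At an unadjusted p under 0.05, 2 were higher in sh-p53 and 0 lower, where 2.29% and 3.33% of all genes tested were; the 2 were NEK2 at 0.40 (adjusted p = 0.558) and KIF18A at 0.32. Averaged over the 51 genes the arrays read 8.57 and 8.76 in sh-p53, against 8.65 and 8.54 in sh-con. The arrays of the lines did not overlap for 18 genes, 15 of them higher in sh-p53 and 3 lower, where 17% and 20.6% of all genes tested showed these patterns.

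Set directly against AICAR in sh-con cells, Nutlin gave lower values for 49 of 51 genes, where 16.9% of all genes tested were called lower and 17.9% higher. SPC25 differed most, by -4.96 ± 0.20 (31.2-fold, adjusted p = 4.42e-12), followed by PBK (-4.35), CENPE (-4.32, 20-fold) and NCAPG (-4.15). CENPE read 3.94 and 3.92 with Nutlin, against 8.47 and 8.02 with AICAR. It was the gene of the list that AICAR raised most in sh-con. The same AICAR arrays enter both comparisons, so its place among those farthest apart follows in part from that rise. The 2 genes not called were SMC4, at 6.92 and 6.71 with Nutlin against 7.29 and 6.76 with AICAR (-0.21, adjusted p = 0.475), and BUB3 (-0.35, adjusted p = 0.0805). BUB3 was called lower after quantile normalisation (-0.33, adjusted p = 0.0372) and with a trended and robust prior variance (adjusted p = 0.0281), among alternatives whose adjusted p ran up to 0.342. For SMC4 the arrays of the 2 compounds overlapped, and its difference turned to 0.06 without the first AICAR array. Against the DMSO arrays that both comparisons share, SMC4 was at -2.25 with Nutlin and -2.04 with AICAR.

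Other genes of the pathway showed how far the Nutlin pattern reached in sh-con, where 18.9% of all genes tested were called lower and 11.3% higher. Of 27 other kinetochore and centromere genes tested, 25 fell (median -2.07), led by SKA3 (-3.04), whose product helps kinetochores track microtubule ends. All 21 other spindle, motor and cytokinesis genes fell (median -2.56), led by ARHGAP11A (-3.75), as did all 10 other anaphase and condensation genes (median -2.44), led by MKI67 (-3.75), the proliferation marker that coats mitotic chromosomes. All 6 genes of mitotic entry, which are CDK1, 3 cyclins and the CDK1-activating phosphatases CDC25A and CDC25B, fell (median -2.90), with CDK1 at -3.92 and CCNA2 at -3.66. The subunits of the anaphase-promoting complex, many of them made throughout the cell cycle, moved less, with 5 of 12 lower (median -0.32), and so did cohesin, with 8 of 9 lower (median -0.67). Of the DREAM and MuvB list 10 of 12 fell (median -1.03), with MYBL2, which encodes B-MYB, at -3.06 and RBL1, which encodes p107, at -2.13. None of these lists had a gene called higher with Nutlin in sh-con. In sh-p53 with Nutlin 0 of these genes were called by limma. An unadjusted p under 0.05, always lower, was seen for 17 of the 27 kinetochore and 17 of the 21 spindle, motor and cytokinesis genes. It was also seen for 7 of the 10 anaphase and condensation and 4 of the 6 mitotic entry genes. The counts were 4 for the DREAM and MuvB list, 2 for cohesin and 0 for the anaphase-promoting complex. Of all genes tested, 4.08% were lower at that threshold. These genes too share arrays and are not independent replicates.

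With AICAR the counts of these lists stand beside 16.2% of all genes tested called higher and 21.6% lower in sh-p53, and 14.6% higher and 23.2% lower in sh-con. Of the anaphase-promoting complex, 5 of 12 genes fell in sh-p53 and 6 of 12 in sh-con, and 0 rose in either line, with ANAPC1, its largest subunit, at -1.08 in sh-p53 and -1.46 in sh-con. Of cohesin, 7 of 9 fell in sh-p53 and 8 of 9 in sh-con, led by STAG1 at -1.99 in sh-p53 and -2.01 in sh-con. Of the 6 mitotic entry genes 2 rose in sh-p53, CDC25B and CDC25A, and 3 rose in sh-con, among them CDK1 at 0.94. The 27 other kinetochore genes had 5 higher and 3 lower calls in sh-p53 and 7 higher and 4 lower in sh-con. These shares were near those of all genes tested or below them, except for the higher calls in sh-con, whose share was above 14.6%. Of these genes SKA2 was lowest, at -2.07 in sh-p53 and -2.40 in sh-con. The 21 other spindle, motor and cytokinesis genes had 8 higher and 2 lower calls in sh-p53 and 5 higher and 3 lower in sh-con. The 10 other anaphase and condensation genes had 6 higher and 1 lower in sh-p53 and 1 higher and 2 lower in sh-con. The 12 genes of the DREAM and MuvB list had 2 higher and 3 lower in sh-p53 and 1 higher and 6 lower in sh-con. The interaction with AICAR was called for MYBL2 alone of all these genes (0.85, adjusted p = 0.0456).

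Principal components of the 51 genes summarise the arrays. The first held 94.6% of the variance and placed the sh-con Nutlin arrays at 16.5 and 18.2, the sh-p53 Nutlin arrays at -1.60 and -0.04, and the other 8 arrays between -5.05 and -3.16. The second, with 4.12%, set the 4 AICAR arrays of both lines (1.82 to 2.60) apart from the other 8 (-1.65 to 0.24).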

How the data were processed

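Arrays received 200 ng of biotin-labelled total RNA each, per the labels' protocols. The deposited values are log2 signals of probe sets, from 2.14 to 14.33. RMA, a background correction, quantile normalisation and probe summary, and Partek are named in the submitters' processing notes, but versions and settings are not given in the sources used here. Quantile normalisation pulls arrays to a common distribution, so a shift of most transcripts one way would be partly removed. A low signal holds mostly background, which understates changes of dim genes.

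Of 33297 probe sets, the platform annotation, which can be old, gave 1 symbol to 19460, several to 1754 and none to 12083. The brightest single-symbol probe set by mean over 12 arrays stood for each of 18417 genes, 769 of which had several. A filter at the 25th percentile of the gene means (4.58) removed 4604 dim genes, leaving 13813 tested. Group means of all 12 arrays were fitted together with limma 3.58.1 in R 4.3.3, with 6 residual degrees of freedom plus 11.3 from the prior, and genes were called at a 2-sided Benjamini-Hochberg adjusted p under 0.05 over all genes tested. Errors are the SE of the fit, 0.13 to 0.21 for the mitosis genes; 2 arrays per group limit the precision. The code was tested on simulated data.

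The genes, subgroups and other lists were chosen with earlier results of these data known. All 52 genes could be named with fold changes. Values per array are given for FOXM1, for the gene of each subgroup with the largest Nutlin response in sh-con, for the 4 highest and 4 lowest genes called with AICAR in each line, for the 3 largest interactions, and for genes that depart from their subgroup; SPC24 was added after its values were seen. Pathway genes were limited to the 2 largest changes per list. Alternatives were other filters on dim genes, centring or quantile normalisation of arrays, the mean of a gene's probe sets, fits of only the groups compared, a variance trend, the replicate number as a block, and each array left out. Centring on the median of measured genes was added after seeing the data. Same-numbered arrays were checked for pairing by correlating their deviations from the group means.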

Additional observations from a re-analysis of the deposited data

Results flagged for a closer look

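The Nutlin response differed between the lines for 49 of 51 mitosis genes by the interaction in limma, at an adjusted p under 0.05 and always in the direction of a smaller fall in sh-p53. Of all genes tested, 4.67% were called in the same direction of the interaction and 2.73% in the other. On the log2 scale the difference was 3.91 for SPC25, 3.59 for PBK, 3.34 for NUF2, 3.34 for KIF11, 3.26 for NCAPG, 3.25 for BUB1, 3.14 for ASPM, 2.71 for ANLN, 2.33 for CDC20, 2.29 for FOXM1, 2.06 for AURKB and 1.01 for SPC24. For each of these 12 genes both Nutlin arrays of sh-p53 lay above both Nutlin arrays of sh-con. Because all 12 were called in the interaction, this follows largely from their choice and is no separate support. Groups of 2 arrays are too small for a test of single outlying arrays, and each hairpin stands for 1 line.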

How the results depend on the processing

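With Nutlin in sh-con, 50 mitosis genes were called lower under every setting and with any array left out, and the interaction was called for 48 to 49. With AICAR in sh-con, the number higher was 6 with arrays centred on their median, and leaving out an array gave 6 to 11 higher and 6 to 13 lower. With AICAR in sh-p53, the number higher was 14 after quantile normalisation, and leaving out an array gave 4 to 7 higher and 4 to 9 lower. With Nutlin in sh-p53, 9 were called lower when only the groups compared were fitted, 2 with a filter at the 50th percentile and 2 with a trended and robust variance. The AICAR interaction was called lower for 1 gene after quantile normalisation and 1 with a trended and robust variance, and higher for 1 with the 50th percentile filter and 1 with that variance. SMC4 in Nutlin against AICAR ranged from -0.48 to 0.0589 with an array of sh-con left out, and its sign turned without the first AICAR array. The causes were not tested.

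Over all genes tested, centring left 1100 genes called higher with AICAR in sh-p53, against 2235 as deposited, and 1103 in sh-con, against 2023. Leaving out 1 array gave 1164 to 2562 called higher with AICAR in sh-con, and 1324 to 2262 called lower with Nutlin in sh-con, against 2616 on all arrays. When only the groups compared were fitted, 2491 were called higher with Nutlin in sh-con, against 1563, and 38 lower and 29 higher with Nutlin in sh-p53, against 0 and 11. In DMSO, that fit called 63 higher and 112 lower in sh-p53, against 36 and 53. Quantile normalisation called 586 lower in the Nutlin interaction, against 377.

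Over 15 pairs of groups, the deviations of same-numbered arrays correlated between -0.558 and 0.567, and 7 were over 0.1. The sh-con groups and sh-p53 Nutlin correlated positively with one another, from 0.25 to 0.57. So did sh-p53 DMSO with sh-p53 AICAR, at 0.26. Between these sets of groups, correlations ran from -0.56 to 0.03. The duplicates thus share a deviation that does not follow their numbers in every group, and its part in the results was not tested. With the replicate number as a block, 8 mitosis genes were called higher with AICAR in sh-p53 in place of 7, and the other counts of mitosis genes did not change. Because the shared deviation does not follow the number in every group, this block cannot remove it. Of the genes named with values per array, 3 calls were lost, 2 for SPC25 with AICAR in sh-p53 and that of the SPC24 interaction, each without 1 array. Calls were gained as well under some settings. Among these were BUB3 in Nutlin against AICAR under 2 settings, SPC25 with AICAR in sh-con, FOXM1 with Nutlin in sh-p53, and FOXM1 and PTTG1 in the AICAR interaction. Signal near background limits the size of falls in dim genes, and 2 arrays per group limit all tests.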
